A study of Homo sapiens with 12 samples.

Results

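Cells of a HER2 L755S line and a PIK3CA E545K line, both made in MCF-10A, were grown together, and the RNA of the co-culture was set against the range spanned by the lines grown alone. All 12 arrays of the series entered, 4 of each single culture and 4 of the co-culture. A gene was of interest when the co-culture lay above the higher or below the lower of the line means, since any blend of the single-culture levels, in any proportion, lies between them. MCF-10A is a non-tumorigenic human breast epithelial line with a basal character. HER2 L755S changes the kinase domain of the receptor HER2, and PIK3CA E545K alters p110-alpha, the enzyme part of PI3K, which phosphorylates membrane lipids. Each group was grown in quadruplicate. EGF was supplied at a physiologic level to all of them, no further agent was given, and they were harvested between day 7 and day 14, when droplet digital PCR put the share of HER2-mutant cells in the co-cultures at about 75%. The labels give no harvest day for a single array, so a difference in day between the groups cannot be told apart from co-culture. They name 1 line for each mutation, and MCF-10A cells with neither mutation were not analysed here. The values were log2 probe-set signals of whole-transcript arrays, 17709 probe sets of 17687 genes with 1 gene symbol each.

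Epithelial cells respond to neighbours through secreted ligands, contact receptors and the matrix that they share. EGF receptors signal through the RAS-ERK cascade, which induces short-lived immediate-early transcription factors and, later, phosphatases that dampen the cascade, and through PI3K and AKT, which restrain FOXO factors and promote growth. Cell contact and tension act through the Hippo kinases on the YAP and TAZ coactivators, whose targets include CCN2. Inflammatory cytokines such as interleukin-1 act through NF-kB, and amino acid shortage acts through the translation of ATF4. In a mixed culture, each array holds the RNA of both lines, so these data cannot say in which line a transcript changed, and fewer cells of a line and less RNA per cell cannot be told apart.

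The arrays carried an epithelial profile with both basal and luminal keratins. Of 16 basal markers listed, 10 were measured, and all 10 were above background on every array, where background is the 95th percentile of the negative control probe sets of an array (6.32 to 7.12). Of 18 luminal markers, 8 were above background on all 4 co-culture arrays, among them KRT19 (means of 16.35, 15.10 and 15.36 in the HER2-mutant line, the PIK3CA-mutant line and the co-culture), while ESR1 and PGR were under it on every array. Of 13 measured fibroblast markers, 5 were above it on all 4 co-culture arrays (FAP, ACTA2, COL1A2, DCN and FBLN1), FAP at 11.19 beside 5.22 in the HER2-mutant and 11.17 in the PIK3CA-mutant line, whereas PDGFRA, PDGFRB, LUM and THY1 were under it on every array. Of 16 measured blood and endothelial markers, 3 were above background on all 4 co-culture arrays (CD14, CSF1R and CD68). PTPRC, the pan-leukocyte marker, was under background on all 12 arrays, as was PECAM1, an endothelial marker. Array medians lay between 6.41 and 6.49, and between 7898 and 9031 named probe sets per array were above background. These counts differed by group, at 7898 to 8437 on HER2-mutant, 8575 to 8953 on co-culture and 8961 to 9031 on PIK3CA-mutant arrays. The background level was 6.73 to 7.12, 6.37 to 6.66 and 6.32 to 6.39 in the same order. Being over background was therefore judged against a higher level in the HER2-mutant culture. Across genes, the median correlation of a co-culture array was 0.996 with the others of its group, 0.991 with the PIK3CA-mutant arrays and 0.970 with the HER2-mutant arrays. With 4 arrays in each group, precision is limited by their number. ERBB2 and PIK3CA were not analysed here, so genotypes were not checked against the signal.

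The co-culture lay beyond both single cultures for a small set of genes. In limma, with the larger of both one-sided contrast p-values doubled over the 2 directions and adjusted by the Benjamini-Hochberg method over all 17709 probe sets, 121 genes were above both lines and 98 were below both at an adjusted p under 0.05. That is 0.683% of the probe sets tested for the genes above and 0.553% for those below. Each count of called members of a gene list below is to be read beside these shares. They are taken over all probe sets, those under background included, and so are low as a comparison for lists of mostly detected genes. The distance beyond the nearer line mean, used throughout as the size, had a median of 0.76 among the genes above and of -0.64 among those below, on the log2 scale. At least 0.5 beyond the nearer line lay 97 genes above, 0.548% of the probe sets, and 68 below, 0.384%. At least 1 beyond it lay 28 genes above and 9 below.

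Most genes were not of this kind. The co-culture mean lay between the line means for 9605 probe sets, 54.2% of them, above both at any size for 3229 (18.2%) and below both for 4875 (27.5%). Over all probe sets the median difference from the higher line mean was -0.20 and that from the lower line mean was 0.13. Without adjustment, 414 probe sets were above both and 460 below both at a p under 0.05. Array by array, the 4 co-culture arrays lay above all 8 others for 282 probe sets, 1.59%, and below all 8 for 279, 1.58%. Among the called genes the arrays did not overlap for 119 of the 121 above and for 91 of the 98 below.

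**Figure D1:**
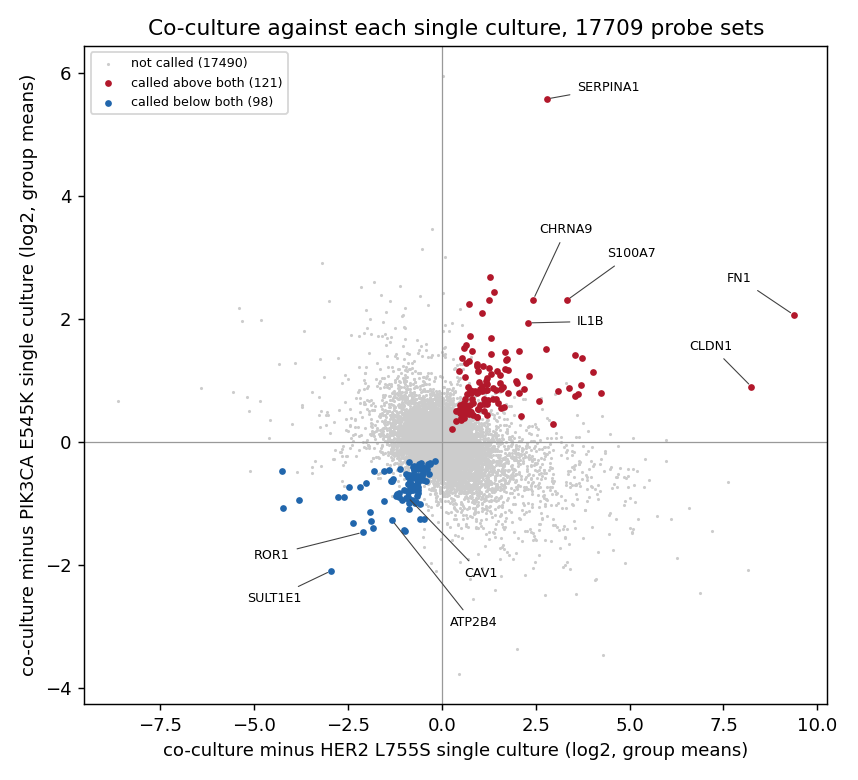
Difference of the co-culture from the HER2 L755S single culture (x axis) against that from the PIK3CA E545K single culture (y axis), in log2 group means, 1 point per probe set; red marks the 121 genes called above both and blue the 98 called below both. Called genes lie in the upper right and lower left, with FN1 and CLDN1, not above background in the HER2-mutant line, far to the right and SERPINA1, not above background in the PIK3CA-mutant line, at the top.

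The called genes were of several kinds in their relation to the lines. Among the genes above, 59 did not pass a test of the difference between the lines (limma, adjusted p under 0.05), a difference that 44.3% of all probe sets passed. CHRNA9, IL1B, NUAK2, PPARGC1A, NR4A1 and CCN2 were of this kind. For 47 the lines differed and the PIK3CA-mutant line was the higher one, as for FN1, S100A7, ALDH3B2, PHGDH and CLDN1. Higher is relative to the other line. H2BC14 and H2BC26, at means of 4.39 and 5.30 in the PIK3CA-mutant line, were under background on every array of that line. For 15 the HER2-mutant line was the higher one, as for SERPINA1, EGR3, EFNA1 and S100A9. Median sizes were 0.76, 0.79 and 0.72 in these 3 kinds. Among the genes below, the lines did not pass as different for 54, as for ATP2B4, CAV1, TIMP3 and DUSP1. For 37 they differed with the PIK3CA-mutant line the lower one, as for SULT1E1, ROR1, MIOS and CAVIN2, and for 7 with the HER2-mutant line the lower one, as for TMEM40. The PIK3CA-mutant line was the nearer one for 71.1% of the called genes above and 69.4% of those below, beside 56.8% and 68.3% of all probe sets whose mean lay on that side at any size.

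The called genes were brighter than most. Their median signal over the 12 arrays was 10.14 above and 10.49 below, against 6.45 over all probe sets. Of the 121 above, 80 were over background in both single cultures on all 8 arrays, 22 in neither single culture on any array, and 13 on none of the 12 arrays. Of the 98 below, 91 were over background on all 8 single-culture arrays and 3 on no array at all. Where a single culture was not well above background, a fold is given below as a lower limit, from the higher of the probe set's own signal and the background level on each array.

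Among the genes farthest above both lines were an antiprotease, an inflammatory cytokine, calcium-binding proteins of stressed epithelium and the matrix protein fibronectin. SERPINA1, which encodes alpha-1-antitrypsin, the inhibitor of neutrophil elastase, showed the largest size. It read 7.999, 7.82, 7.58 and 7.10 in the HER2-mutant culture, 4.88, 4.97, 4.47 and 5.08 in the PIK3CA-mutant culture, and 10.33, 10.40, 10.52 and 10.45 in the co-culture, on the log2 scale. The co-culture arrays lay together, the lowest of them 2.33 above the highest single-culture array, and the PIK3CA-mutant culture was not well above background. The size was 2.80 ± 0.17 (SE, limma adjusted p 1.35e-09), 6.96-fold over the HER2-mutant mean.

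For SERPINA1, whose co-culture level stood farthest above both lines, and SULT1E1, whose level stood farthest below, the promoter is shown as RefSeq gives it on GRCh38.p14, from 250 bases before to 50 bases after the annotated start, 5′ to 3′ on the gene's strand. Both genes lie on the minus strand, SERPINA1 at chr14:94390586-94390885 and SULT1E1 at chr4:69860096-69860395. Capitals mark matches to the motifs searched on both strands: the NF-kB motif in SERPINA1, and TGATGNAA of ATF4 with its CEBP partners and GGAATG of TEAD, the DNA-binding partner of YAP, each read on the opposite strand, in SULT1E1.
SERPINA1: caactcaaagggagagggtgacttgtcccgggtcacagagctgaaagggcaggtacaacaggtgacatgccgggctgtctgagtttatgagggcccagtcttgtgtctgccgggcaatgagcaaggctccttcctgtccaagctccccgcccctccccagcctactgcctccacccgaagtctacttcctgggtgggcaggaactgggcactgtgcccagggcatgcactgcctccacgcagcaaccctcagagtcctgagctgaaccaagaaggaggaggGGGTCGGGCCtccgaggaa
SULT1E1: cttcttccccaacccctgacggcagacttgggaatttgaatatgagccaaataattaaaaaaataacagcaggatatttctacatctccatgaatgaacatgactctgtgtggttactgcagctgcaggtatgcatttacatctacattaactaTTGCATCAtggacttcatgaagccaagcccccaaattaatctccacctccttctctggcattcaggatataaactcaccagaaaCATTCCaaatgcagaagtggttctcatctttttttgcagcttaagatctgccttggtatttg

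The shares of promoters with each motif are given as a description, and no difference between them was tested. Of 14250 promoters of the same length matched to tested genes, 67.8% held the NF-kB motif, against 60.2% of 98 promoters of genes called above and 74.4% of 86 of genes called below. GGAATG was in 11.6% of all promoters, in 9.18% for genes above and in 20.9% for genes below. TGATGNAA was in 2.52%, 4.08% and 2.33% in the same order. The AP-1 motif TGANTCA was in 5.75%, 5.10% and 4.65%, the antioxidant response motif TGACNNNGC in 14.6%, 16.3% and 14.0%, the FOXO motif GTAAACA in 2.58%, 2.04% and 2.33%, and the E-box CACGTG in 8.69%, 7.14% and 5.81%. Among the promoters of genes above, 16 were of histone genes. Of these, 4 (25.0%) held the NF-kB motif and 0 held GGAATG, which lowers both shares for the genes above. A match is a description of letters and says nothing of binding.

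**Figure D2:**
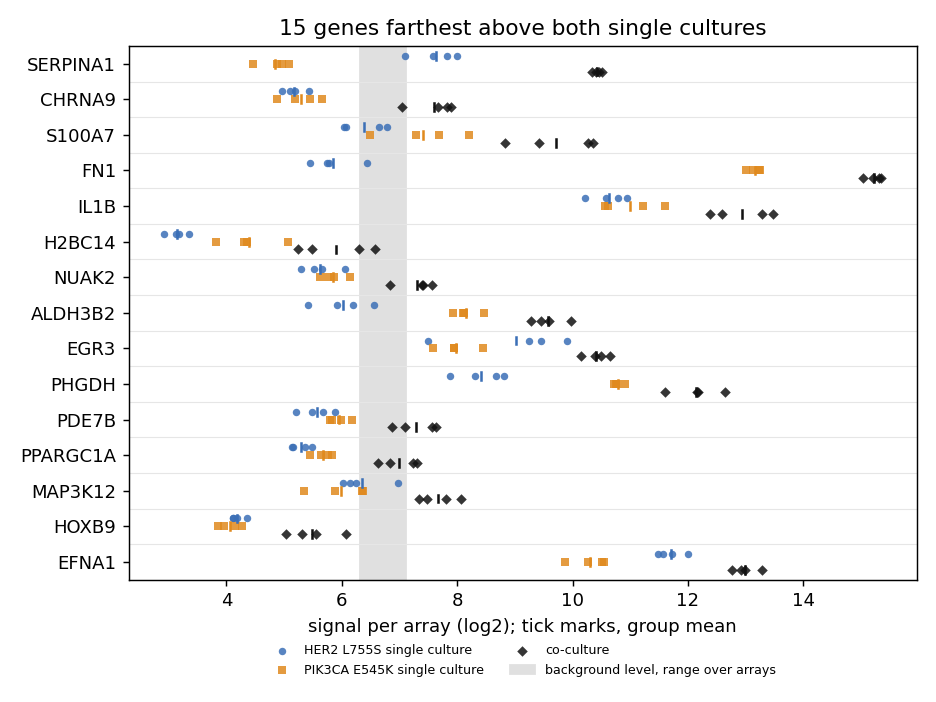
Signal on each array (x axis, log2) of the 15 genes farthest above both single cultures among called genes whose co-culture arrays do not overlap the others (S100A7A, at 1.47, is left out by that limit), in order of size from SERPINA1 at 2.80 to EFNA1 at 1.29; circles are HER2 L755S, squares PIK3CA E545K and diamonds co-culture arrays, ticks are group means, and the grey band is the range of the background level over the arrays. The choice of genes places the diamonds to the right of all other symbols, and in the rows of H2BC14 and HOXB9 most or all of them lie under or within the grey band. The lowest diamonds of CHRNA9 and NUAK2 also lie within the band, as does the co-culture mean of PPARGC1A.

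Inflammatory and defence genes formed one part of the genes above. IL1B, the cytokine interleukin-1 beta, read 10.21, 10.59, 10.94 and 10.78 in the HER2-mutant culture, 11.22, 10.62, 11.60 and 10.57 in the PIK3CA-mutant culture, and 12.39, 13.47, 13.29 and 12.59 in the co-culture. The single cultures overlapped each other, and every co-culture array was higher than both. The size was 1.93 ± 0.22 (SE, limma adjusted p 1.14e-05), 3.82-fold over the PIK3CA-mutant mean. Of the 21 measured members of the interleukin-1 family and its receptors, IL1B alone passed, 4.76% beside 0.683% of all probe sets. IL1A, the brightest of the others, read 13.34, 13.88 and 13.95 as HER2-mutant, PIK3CA-mutant and co-culture means. TNIP1, which restrains NF-kB signalling, was above both lines by 0.50 and was the single call among 22 NF-kB targets and feedback genes, of which TNFAIP3 had a mean 0.08 above the higher line without passing (adjusted p 1). Of 35 chemokines and acute-phase genes, PTX3 and CSF3 passed, by 1.21 and 0.99, 5.71% beside 0.683% of all probe sets. Both stayed under background on all 12 arrays, so no fold is given. CCL20, far brighter, read 13.08, 12.48 and 13.85 as means and did not pass (size 0.78, adjusted p 0.38). The TNIP1 call was lost in 2 of the 12 fits without 1 array, at an adjusted p of up to 0.0535 without PIK3CA-mutant replicate 4.

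The S100A proteins, small calcium-binding proteins of which S100A7, S100A8 and S100A9 are induced in inflamed skin and breast epithelium, had 3 of 17 measured members above both lines and 0 below, 17.6% above beside 0.683% of all probe sets. S100A7 read 6.64, 6.04, 6.08 and 6.78 in the HER2-mutant culture, 8.20, 7.29, 7.68 and 6.49 in the PIK3CA-mutant culture, and 8.84, 10.36, 10.28 and 9.42 in the co-culture. The co-culture arrays differed widely among themselves, yet each was above all others. The size was 2.30 ± 0.31 (SE, limma adjusted p 9.72e-05), 4.94-fold. S100A7A, a close relative whose signal may be shared with it, was 1.47 beyond the higher line, at least 1.12-fold, with 1 array overlapping. S100A9, which pairs with S100A8 as calprotectin, had means of 11.69 ± 0.15, 10.67 ± 0.61 and 12.76 ± 0.22 (SD, n = 4 each) in the HER2-mutant line, the PIK3CA-mutant line and the co-culture, a size of 1.07 and a call lost with a robust spread. The antiprotease genes PI3 (elafin) and SLPI were above both by 1.15 and 0.46. They were the 2 calls among 26 genes of mucins and secreted defence proteins, 7.69% beside 0.683% of all probe sets. PI3 and SLPI were also the 2 calls among 47 genes of the cornified envelope and squamous differentiation, 4.26%. LTA4H, which makes leukotriene B4, was above both by 0.46, the single call among 24 leukotriene and prostaglandin genes. The SLPI call was lost in 2 of the 12 fits without 1 array, at an adjusted p of up to 0.0975 without co-culture replicate 2.

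Genes of the matrix and of cell contact stood on both sides. FN1, the gene of fibronectin, read 5.45, 6.44, 5.75 and 5.78 in the HER2-mutant culture, 13.13, 13.02, 13.24 and 13.23 in the PIK3CA-mutant culture, and 15.34, 15.20, 15.31 and 15.03 in the co-culture. The HER2-mutant culture was not well above background, and the co-culture was 2.07 ± 0.14 above the PIK3CA-mutant mean (SE, limma adjusted p 6.32e-09), 4.19-fold. Any blend of the lines lies below the PIK3CA-mutant level. Of 33 fibronectin and matricellular genes, 3 were above both and 0 below, 9.09% above beside 0.683% of all probe sets. Their median against the higher line was -0.16, beside -0.20 over all probe sets. The others called were CCN2, a secreted matricellular protein, by 1.10, and LTBP1, which binds latent TGF-beta to the matrix, by 0.70. TGFBI, the brightest member not called, read 17.64, 16.91 and 16.75. Among 28 collagens and their modifying enzymes there were 0 calls in either direction by limma, PLOD2, the brightest, at 13.58, 14.13 and 13.90 lying between the lines. The LTBP1 call was lost in 4 of the 12 fits without 1 array, at an adjusted p of up to 0.0948 without PIK3CA-mutant replicate 3.

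CLDN1, a strand-forming tight junction protein, followed the pattern of FN1. It read 5.77, 6.05, 5.39 and 5.68 in the HER2-mutant culture, 13.39, 12.83, 13.03 and 13.02 in the PIK3CA-mutant culture, and 13.48, 14.10, 13.84 and 14.45 in the co-culture. Its lowest co-culture array was 0.09 above the highest PIK3CA-mutant array, and the size was 0.90 ± 0.17 (SE, limma adjusted p 0.00371). It was the single call among 24 tight junction genes, 4.17% beside 0.683% of all probe sets. EFNA1, a membrane-anchored ligand of the Eph receptors, was higher in the HER2-mutant line, with means of 11.70 ± 0.23, 10.30 ± 0.31 and 12.99 ± 0.22 (SD, n = 4 each). Its size of 1.29 ± 0.14 (SE, limma adjusted p 6.98e-06) was the single call among 21 Eph receptors and ephrins. In the opposite direction, ITGB1, the shared beta subunit of many matrix receptors, read 15.95, 15.76, 15.92 and 15.94, then 15.82, 15.92, 15.83 and 15.91, and 15.43, 15.30, 15.29 and 15.23 in the co-culture. The single cultures differed by 0.02 and the co-culture lay 0.55 ± 0.06 below them (SE, limma adjusted p 1.02e-05), which was the single call among 30 integrins and laminins. TIMP3, a matrix-bound inhibitor of metalloproteases, lay 0.88 ± 0.10 below the lower line (SE, limma adjusted p 1.02e-05), the single call among 36 matrix proteases and inhibitors, and TLL1, a metalloprotease that processes procollagen, 0.95 ± 0.12 below it (SE, limma adjusted p 6.91e-05).

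Immediate-early transcription factors, which growth factors induce within minutes through ERK and other kinases, had 4 of 26 measured members above both lines and FOS below both, 15.4% and 3.85% beside 0.683% and 0.553% of all probe sets. NR4A1, an orphan nuclear receptor, read 12.29, 13.16, 13.62 and 13.44 in the HER2-mutant culture, 13.89, 13.51, 14.08 and 12.95 in the PIK3CA-mutant culture, and 14.87, 14.55, 14.61 and 15.15 in the co-culture. Its arrays did not overlap, and the size was 1.19 ± 0.22 (SE, limma adjusted p 0.00432). EGR3, a zinc finger factor, read 7.50, 9.46, 9.90 and 9.24, then 7.58, 7.95, 8.45 and 7.94, and 10.15, 10.49, 10.38 and 10.64. HER2-mutant replicate 1 was far below its group, and the size over the HER2-mutant mean was 1.39 ± 0.31 (SE, limma adjusted p 0.0222). Without that array it was 0.88. EGR4 and IER5 were above both by 1.09 and 0.82. FOS, a subunit of AP-1, went the other way, with means of 12.46 ± 0.72, 12.94 ± 0.24 and 11.49 ± 0.24 (SD, n = 4 each) and a size of -0.97 ± 0.22, although HER2-mutant replicate 1, at 11.40, lay among the co-culture arrays. EGR1, the brightest member, did not pass, with means of 16.65, 16.67 and 16.59. The EGR3 call was lost in 3 of the 12 fits without 1 array, at an adjusted p of up to 0.0849 without co-culture replicate 4, and the FOS call in 6, at up to 0.122 without co-culture replicate 3. Without the trend of the spread with signal, and with a robust spread, EGR3, NR4A1 and FOS were not called.

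Feedback regulators of ERK also divided. DUSP16, a phosphatase that prefers JNK and p38, read 8.21, 8.19, 8.04 and 8.35, then 8.11, 8.31, 7.96 and 8.01, and 9.12, 8.85, 8.89 and 8.88 in the co-culture, a size of 0.74 ± 0.13 (SE, limma adjusted p 0.00222) without overlap. DUSP5, a nuclear phosphatase of ERK, had means of 8.32, 11.11 and 12.03, with 1 co-culture array at 11.46 under the highest PIK3CA-mutant array. DUSP1, an immediate-early phosphatase, was below both lines, with single-culture means of 15.48 in each line and 14.70 ± 0.08 in the co-culture (SD, n = 4), a size of -0.77 ± 0.10 (SE, limma adjusted p 0.000107). DUSP1 was also the single call among 26 steroid receptors and hormone-responsive genes. Of 25 ERK feedback genes these 3 passed, 8.0% above and 4.0% below beside 0.683% and 0.553% of all probe sets. The bright member DUSP6 lay between the lines at 6.08, 14.74 and 13.29. EGFR itself had a co-culture mean of 13.51 beside 13.54 and 14.11 and was not called (adjusted p 1), nor was any of the other 15 measured receptors and ligands of its family. The DUSP5 call was lost in 4 of the 12 fits without 1 array, at an adjusted p of up to 0.104 without PIK3CA-mutant replicate 1. TRIB1, a pseudokinase that scaffolds protein degradation, and NOCT, a circadian phosphatase, were chosen after their values were seen and were above both by 0.86 and 0.85, the former lost in 4 such fits at up to 0.0704 without PIK3CA-mutant replicate 2.

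Receptors and intracellular signalling genes outside these lists included several of the farthest. CHRNA9, a subunit of nicotinic acetylcholine receptors, read 5.11, 5.19, 5.44 and 4.96 in the HER2-mutant culture, 5.66, 4.87, 5.19 and 5.45 in the PIK3CA-mutant culture, and 7.89, 7.83, 7.67 and 7.04 in the co-culture. It was over background on the 4 co-culture arrays alone, so the 2.31 log2 units correspond to an at least 1.56-fold higher level (limma adjusted p 1.9e-07). MAP3K12, a kinase upstream of JNK, had means of 6.35, 5.98 and 7.67, a size of 1.32 and an at least 1.63-fold higher level. PDE7B, a cyclic AMP phosphodiesterase, was beyond the lines by 1.35, and both were under background on all arrays, which gives an at least 1.26-fold higher level. ID3, an inhibitor of basic helix-loop-helix factors and a target of BMP signalling, read 9.29, 10.79, 10.71 and 11.02, then 11.07, 11.23, 10.99 and 10.91, and 12.16, 12.14, 12.25 and 12.30. The co-culture arrays lay close together and above all others, at a size of 1.16 ± 0.22 (SE, limma adjusted p 0.00595), a call lost without the trend and with a robust spread. Of 32 TGF-beta and BMP genes, ID3 and LTBP1 were above, 6.25% beside 0.683% of all probe sets. FSTL3, an antagonist of activin, was below by 0.64, 3.1% beside 0.553%. The FSTL3 call was lost without PIK3CA-mutant replicate 4 at a limma adjusted p of 0.0558. HOXB9, a homeobox factor, was 1.30 beyond the lines while staying under background on all 12 arrays.

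Among signalling genes below both lines, ROR1, a receptor tyrosine kinase-like receptor for WNT5A, read 11.22, 10.96, 11.10 and 11.30 in the HER2-mutant culture, 10.51, 10.44, 10.44 and 10.64 in the PIK3CA-mutant culture, and 8.81, 9.06, 9.23 and 9.04 in the co-culture. The groups were well apart, and the size was -1.47 ± 0.11 (SE, limma adjusted p 3.04e-08), 2.78-fold below the PIK3CA-mutant mean. RGS2, which shortens G protein signalling, read 12.07, 11.75, 12.03 and 11.80, then 10.86, 11.20, 11.16 and 11.35, and 10.15, 9.88, 9.79 and 10.15, a size of -1.15 ± 0.12 (SE, limma adjusted p 4.02e-06). ATP2B4, a plasma membrane calcium pump, was alike in the lines at 13.28 ± 0.10 and 13.23 ± 0.10 and lower at 11.95 ± 0.07 in the co-culture (SD, n = 4 each), which is 2.43-fold below the lower line (limma adjusted p 1.35e-09). MIOS, a component of the GATOR2 complex that relays amino acids to mTORC1, read 12.03, 11.57, 11.75 and 11.64, then 11.37, 11.25, 11.43 and 11.15, and 9.96, 10.02, 9.66 and 9.98. All 4 co-culture arrays were below the lowest single-culture array, with a gap of -1.13, at a size of -1.40 ± 0.11 (SE, limma adjusted p 6.96e-08). FGFR2, a receptor of fibroblast growth factors, and CMKLR2, a chemerin receptor, were chosen after their values were seen and lay 0.69 and 1.07 below the lower line. The FGFR2 call was lost in 2 of the 12 fits without 1 array, at an adjusted p of up to 0.0591 without PIK3CA-mutant replicate 4, and the CMKLR2 call in 4, at up to 0.0854 without co-culture replicate 2.

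Genes of the Hippo pathway and of YAP output were found on both sides. NUAK2, an AMPK-related kinase that YAP induces, read 5.29, 5.66, 5.52 and 6.06, then 5.62, 6.14, 5.76 and 5.87, and 6.84, 7.57, 7.39 and 7.40 in the co-culture. It was over background in the co-culture alone, which gives an at least 1.27-fold higher level at a size of 1.45 ± 0.19 (SE, limma adjusted p 6.91e-05). CCN2, a classical YAP and TEAD target, read 10.09, 9.31, 9.71 and 9.75, then 9.35, 9.76, 9.05 and 10.17, and 11.07, 10.89, 10.46 and 10.85, a size of 1.10 ± 0.19 (SE, limma adjusted p 0.00199). The single cultures overlapped, and the co-culture arrays were above both. Of 24 YAP and TEAD targets, NUAK2 and CCN2 were above, 8.33% beside 0.683% of all probe sets. AMOTL1, which binds YAP at junctions, was below by 0.42, 4.17% beside 0.553%. The bright member TNFRSF12A lay between the lines. Outside the list, and chosen after their values were seen, STK3 (the Hippo kinase MST2) and MOB3B (a relative of the MOB1 adaptor) were below both lines by 0.80 ± 0.11 and 0.79 ± 0.09 (SE, limma adjusted p 0.000195 and 1.91e-05). RASSF6, a further adaptor of the pathway, had a size of -0.88 but was under background on all 12 arrays. Its call was lost in 5 of the 12 fits without 1 array, at a limma adjusted p of up to 0.128 with co-culture replicate 2 left out. The RASSF6 call was lost too when the trend of the spread with signal was dropped. No list of Hippo pathway components was counted. The AMOTL1 call was lost in 4 of the 12 fits without 1 array, at an adjusted p of up to 0.097 without PIK3CA-mutant replicate 1.

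Metabolic genes above both lines included members of the amino acid response. PHGDH, which catalyses the committed step of serine synthesis, read 7.87, 8.31, 8.67 and 8.81 in the HER2-mutant culture, 10.75, 10.91, 10.72 and 10.77 in the PIK3CA-mutant culture, and 12.15, 11.61, 12.18 and 12.64 in the co-culture. No arrays overlapped, and the size was 1.36 ± 0.18 (SE, limma adjusted p 8.82e-05), 2.56-fold over the PIK3CA-mutant mean. Of 33 measured genes of the ATF4 response, 4 were above both and 0 below, 12.1% above beside 0.683% of all probe sets. The co-culture mean was above both lines, at any size, for 21 of 33, beside 18.2% of all probe sets, with a median of 0.20 against the higher line beside -0.20 over all probe sets. The others called were STC2, a secreted stress glycoprotein, by 0.88, NUPR1, a stress-induced chromatin protein, by 0.71, and ATF4 itself, with means of 12.83 ± 0.14, 13.60 ± 0.03 and 14.04 ± 0.22 (SD, n = 4 each), by 0.44. SLC7A5, the brightest member, did not pass at 16.51, 16.58 and 16.34. HERPUD1, which serves degradation at the endoplasmic reticulum, was above both by 1.09 ± 0.12 (SE, limma adjusted p 6.26e-06), the single call among 24 chaperone genes of that compartment. The ATF4 call was lost in 2 of the 12 fits without 1 array, at an adjusted p of up to 0.0658 without co-culture replicate 4.

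Further enzymes above both lines spanned lipid, nucleotide and tryptophan metabolism. ALDH3B2, an aldehyde dehydrogenase of lipid droplets, read 5.41, 6.56, 6.20 and 5.92, then 8.12, 8.11, 8.46 and 7.93, and 9.28, 9.45, 9.59 and 9.97, a size of 1.42 ± 0.20 (SE, limma adjusted p 0.000183). PPARGC1A, a coactivator of mitochondrial and oxidative genes, was over background in the co-culture alone and at most slightly, with means of 5.29, 5.68 and 7.00 and an at least 1.03-fold higher level (limma adjusted p 6.91e-05). CPT1A, which admits fatty acids to mitochondria, was above both by 0.57. Of 21 cholesterol synthesis genes, MVK and DHCR7 passed, by 0.56 and 0.29, 9.52% beside 0.683% of all probe sets. The co-culture mean was above both lines, at any size, for 7 of the 21 and below both for 0, beside 18.2% and 27.5% of all probe sets. Their median against the higher line was -0.08, beside -0.20 over all probe sets. TMEM97, a sterol-regulated membrane protein chosen after its values were seen, was above both by 0.77 ± 0.13 (SE, limma adjusted p 0.00127). UGDH, which makes UDP-glucuronate for matrix glycans, was above both by 0.49. Chosen after their values were seen, IMPDH2, the rate-limiting enzyme of guanine nucleotide synthesis, lay at 12.01 ± 0.07 and 11.95 ± 0.07 in the lines and at 12.57 ± 0.07 in the co-culture (SD, n = 4 each), and the kynurenine pathway genes KYNU and AADAT lay 0.67 and 1.04 beyond the higher line. In glycogen metabolism PPP1R3B, a phosphatase targeting subunit chosen after its values were seen, was above by 0.95, an at least 1.34-fold higher level. Glycogen synthase GYS1, chosen in the same way, was below by 0.36, and UGP2, which makes UDP-glucose, by 0.44. Of these, CPT1A, MVK, DHCR7, UGDH, PPP1R3B, GYS1 and UGP2 lost the call in 8, 3, 5, 2, 2, 8 and 9 of the 12 fits without 1 array. Their highest adjusted p-values were 0.155, 0.071, 0.196, 0.0536, 0.0703, 0.202 and 0.197, without PIK3CA-mutant replicate 2, co-culture replicate 2, co-culture replicate 2, PIK3CA-mutant replicate 1, HER2-mutant replicate 3, co-culture replicate 3 and PIK3CA-mutant replicate 1.

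Histone genes were the family with the most calls above both lines. Of 73 measured histone genes, 17 were above and 0 below, 23.3% beside 0.683% of all probe sets. The family was grouped after its values were seen. Many members of the same type are near-identical in sequence, so the source of such a signal is uncertain and the 17 calls are not independent. By type, 6 of 18 H2A, 5 of 19 H2B, 4 of 15 H4 and 2 of 12 H3 genes were above, and 0 of 9 H1 genes by limma. Sizes ran from 0.42 to 1.51 with a median of 0.80, the arrays of all 17 did not overlap, and the PIK3CA-mutant line was the nearer one for 15. H4C3 read 11.41, 11.78, 11.74 and 11.60 in the HER2-mutant culture, 12.68, 12.60, 12.38 and 12.77 in the PIK3CA-mutant culture, and 13.72, 13.49, 13.65 and 13.53 in the co-culture, a size of 0.99 ± 0.10 (SE, limma adjusted p 2.02e-06). H2AC19 was alike in the lines, at 11.12, 11.47, 11.48 and 11.46 and at 11.17, 11.54, 11.47 and 11.48, and higher at 12.28, 12.36, 12.59 and 12.30 in the co-culture. H2BC12, the brightest of the 17, had means of 14.55 ± 0.20, 14.66 ± 0.12 and 15.21 ± 0.14 (SD, n = 4 each), a size of 0.55 ± 0.09 (SE, limma adjusted p 0.00152).

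Of the 56 histone genes not called, the co-culture mean was above both lines for 30, between them for 22 and below both for 4. Over all probe sets the shares were 18.2%, 54.2% and 27.5% in the same order. Some of the 30 were barely above, as H4C14 by 0.019. H1-4, a linker histone, read 14.05, 13.39 and 14.44 as means without passing (adjusted p 0.18), and the replacement variants H2AZ1 and H3-3B lay between the lines at 14.23 and 13.82. Signal was over background on all 4 co-culture arrays for 41 of the 73 and for 13 of the 17 called, and H2BC14, with the largest size of 1.51, was over it on 1 co-culture array. The count above was 10 without the trend of the spread with signal, 11 without PIK3CA-mutant replicate 1, 11 without co-culture replicate 3 and 0 against a tested margin of 0.5, and 11 of the 17 genes kept the call in each fit without 1 array.

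**Figure D3:**
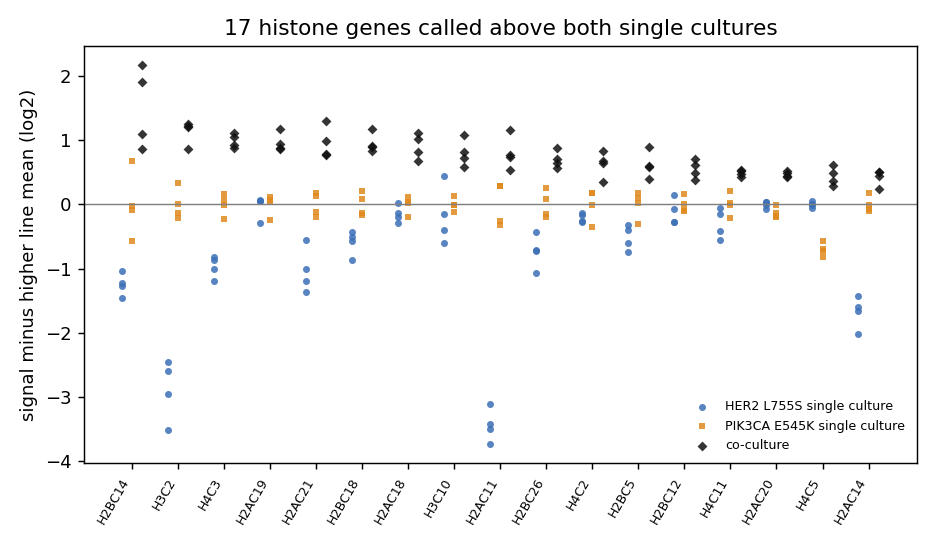
Signal minus the higher line mean (y axis, log2) for the 17 histone genes called above both single cultures, ordered by size from H2BC14 at 1.51 to H2AC14 at 0.42; each point is 1 of 4 arrays per group, circles HER2 L755S, squares PIK3CA E545K and diamonds co-culture, and the grey line is the higher line mean. All diamonds lie above all circles and squares of the same gene, and the circles of H3C2, H2AC11 and H2AC14 lie far below the line.

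Some genes of other chromatin-associated proteins were picked after their values were seen, and no list of such genes was counted. HMGB2, an architectural DNA-binding protein, had means of 8.75 ± 0.26, 11.01 ± 0.10 and 11.84 ± 0.23 (SD, n = 4 each), a size of 0.83 ± 0.13 (SE, limma adjusted p 0.000697). PTMS, an acidic nuclear protein that binds histone H1, was above by 0.58, DEK by 0.39, the chromatin tether PSIP1 by 0.53, the histone chaperone ANP32B by 0.43 and the nucleosome-binding protein HMGN5 by 0.81. TASOR, a component of the HUSH silencing complex, was below both lines by 0.42, a call lost in 2 of the 12 fits without 1 array at an adjusted p of up to 0.0601 without co-culture replicate 4. DEK, PSIP1, ANP32B and HMGN5 lost the call in 5, 6, 5 and 6 of the 12 fits without 1 array, at adjusted p-values of up to 0.113, 0.16, 0.115 and 0.13. These were reached without co-culture replicate 3 for DEK and PSIP1, PIK3CA-mutant replicate 1 for ANP32B and HER2-mutant replicate 2 for HMGN5.

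SULT1E1, which sulfates and so inactivates estrogens, stood farthest below both lines. It read 9.94, 10.51, 9.77 and 10.13 in the HER2-mutant culture, 9.46, 9.42, 8.59 and 9.44 in the PIK3CA-mutant culture, and 8.01, 6.53, 6.90 and 7.06 in the co-culture. All co-culture arrays were lower than every other, and co-culture replicate 1 was the highest of them. Co-culture replicate 2 lay at the background level of its array, 6.53, and replicates 3 and 4 not far above theirs. The size was -2.10 ± 0.24 (SE, limma adjusted p 1.14e-05), 4.29-fold below the PIK3CA-mutant mean. It was the single call among 31 drug- and steroid-metabolising enzymes.

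Caveolae, the small membrane pits built from caveolins and cavins, had 3 of 9 measured genes below both lines and 0 above, 33.3% beside 0.553% of all probe sets, in a group formed after its values were seen. CAV1, the main structural caveolin, read 14.98, 14.85, 14.98 and 15.06 in the HER2-mutant culture, 15.03, 14.96, 14.88 and 14.96 in the PIK3CA-mutant culture, and 14.26, 13.96, 13.96 and 14.04 in the co-culture. The lines differed by 0.01, and the co-culture lay 0.90 ± 0.07 below them (SE, limma adjusted p 6.96e-08), 1.87-fold lower. CAVIN2, which shapes caveolae, read 11.76, 11.06, 11.73 and 11.87, then 10.58, 10.54, 10.55 and 10.53, and 9.07, 8.9966, 9.23 and 9.63, a size of -1.32 ± 0.15 (SE, limma adjusted p 1.14e-05). CAV2, the partner of CAV1 and its neighbour on the chromosome, lay 0.56 below the lower line, a call lost in 5 of the 12 fits without 1 array at an adjusted p of up to 0.0993 without PIK3CA-mutant replicate 1. CAVIN1 was not called, with means of 10.61, 11.37 and 10.48, and EHD2, at the neck of caveolae, was at 15.25, 14.86 and 14.87. CAV1 and CAV2 were also the 2 calls among 22 mesenchymal genes, 9.09% beside 0.553% of all probe sets.

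Among keratins, 2 genes were below both lines, and cytoskeletal genes stood on both sides. KRT6C, a keratin of stressed squamous epithelium, had means of 16.29 ± 0.12, 16.30 ± 0.06 and 15.87 ± 0.06 (SD, n = 4 each), a size of -0.42 ± 0.06 (SE, limma adjusted p 0.000361), although it resembles other KRT6 genes closely. KRT5, the basal keratin, lay at 17.33, 17.44 and 17.13 as means, near the top of the signal range, a size of -0.20. These were the 2 calls among 19 keratins, 10.5% beside 0.553% of all probe sets. TMEM40, a membrane protein with a poorly known role, read 9.70, 10.09, 9.94 and 10.08, then 10.56, 10.43, 10.11 and 10.45, and 8.93, 8.90, 8.89 and 9.05, a size of -1.01 ± 0.12 (SE, limma adjusted p 1.91e-05). EPB41L4A, a FERM domain protein, had co-culture arrays between 6.88 and 6.98 beside single-culture means of 8.81 and 8.21, a size of -1.29 ± 0.14 (SE, limma adjusted p 6.65e-06). STARD13, a START domain protein, had means of 9.10, 7.23 and 6.34, with the co-culture not well above background, an at least 1.63-fold lower level. Chosen after their values were seen, the actin-associated genes PALLD, TES and AHNAK lay 0.55, 0.42 and 0.42 below the lower line, while LCP1, an actin bundler, was above by 0.40. Also seen first and then named, MYL6B, CAP2, CYFIP2 and TGFB1I1, which act on myosin or actin or at focal adhesions, were above by 0.62, 0.64, 0.54 and 0.65. Of the 30 genes in the list of the contractile cytoskeleton, MYH10, a non-muscle myosin, was above by 0.40 and 0 were below by limma. Fits without 1 array lost the calls of MYL6B and CYFIP2 6 times each and of CAP2 and TGFB1I1 2 times each, at adjusted p-values of up to 0.139, 0.156, 0.086 and 0.0941, without co-culture replicate 3, co-culture replicate 2, PIK3CA-mutant replicate 4 and co-culture replicate 2. They lost the call of KRT5 8 times, of AHNAK 4, of TES 3 and of LCP1 7. The highest adjusted p-values were 0.136 (without co-culture replicate 3), 0.136 (PIK3CA-mutant replicate 4), 0.0733 (co-culture replicate 3) and 0.17 (PIK3CA-mutant replicate 4).

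The remaining calls below both lines were spread over many functions. CCNG2, a cyclin of quiescent cells that FOXO factors induce, was equal in the lines at 11.51 and lower at 10.77 ± 0.15 in the co-culture (SD, n = 4), a size of -0.75 ± 0.09 (SE, limma adjusted p 3.7e-05) and the single call among 25 FOXO targets. ZFP36L1, which binds AU-rich messages and promotes their decay, read 15.61, 15.59, 15.60 and 15.56, then 15.04, 15.40, 15.43 and 15.27, and 14.31, 14.60, 14.30 and 14.56, a size of -0.84 ± 0.08 (SE, limma adjusted p 2.02e-06), and was chosen after its values were seen. SAMD9 and DDX60L were the 2 calls among 45 interferon response genes, by -0.65 and -0.70, 4.44% beside 0.553% of all probe sets. PRDM1, a transcriptional repressor, lay 0.89 below the lower line. NDRG1, which hypoxia induces, was below by 0.40, ELOVL5, an elongase of polyunsaturated fatty acids, by 0.34 and SELENOT, a selenoprotein of the endoplasmic reticulum, by 0.37. SLC48A1, a heme transporter, had means of 7.70, 7.65 and 6.74, a size of -0.91. SLC2A5, a fructose transporter, and MAP2, a microtubule-associated protein, were among the 15 farthest below by -0.95 and -0.97, but MAP2 was under background on all 12 arrays and SLC2A5 on all co-culture arrays, so no fold is given. Fits without 1 array lost the call of DDX60L 8 times, of PRDM1 3, of ELOVL5 4, of SELENOT 9 and of SLC2A5 7. The highest adjusted p-values were 0.136, 0.0849, 0.11, 0.159 and 0.18, without co-culture replicate 3, co-culture replicate 1, co-culture replicate 2, PIK3CA-mutant replicate 1 and PIK3CA-mutant replicate 4.

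**Figure D4:**
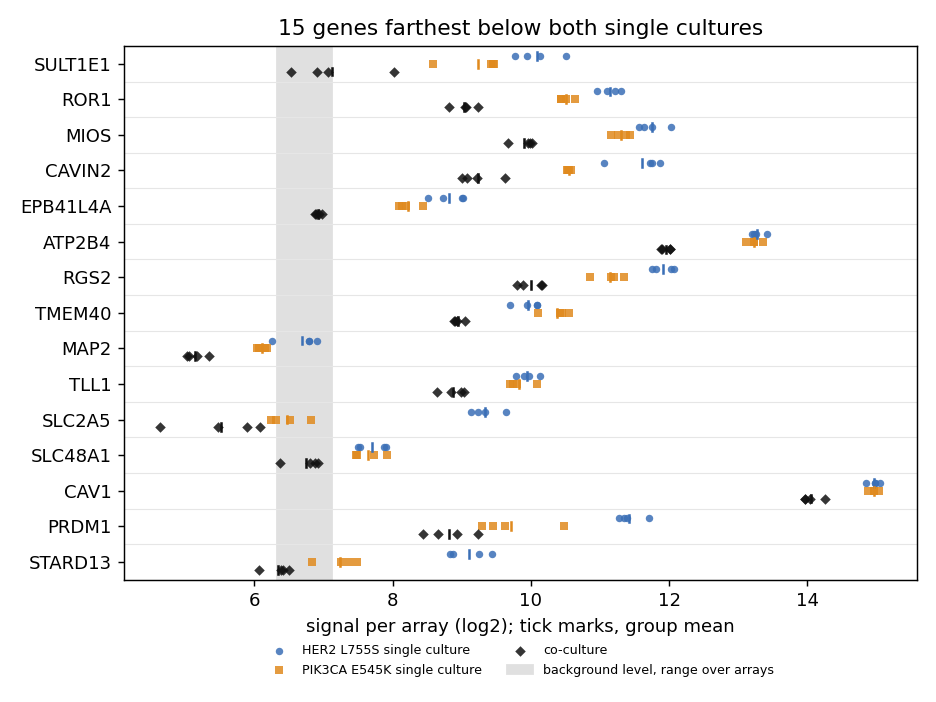
Signal on each array (x axis, log2) of the 15 genes farthest below both single cultures among called genes whose co-culture arrays do not overlap the others (CMKLR2, FOS and PLGRKT are left out by that limit), in order of size from SULT1E1 at -2.10 to STARD13 at -0.89; circles are HER2 L755S, squares PIK3CA E545K and diamonds co-culture arrays, ticks are group means, and the grey band is the range of the background level over the arrays. The choice of genes places the diamonds to the left of all other symbols, and the lines overlap or nearly so for ATP2B4, TLL1, SLC48A1 and CAV1.

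Over the 59 gene lists, 35 had at least 1 called member. In 19 all calls were above both lines, in 12 all were below, and 4 held both, those of immediate-early factors, ERK feedback genes, YAP targets and TGF-beta and BMP signalling. Of the 1473 listed genes measured, 2.44% were above and 1.15% below, beside 0.683% and 0.553% of all probe sets, and the lists were written with earlier results of these data known. All probe sets include many under background, and called genes were brighter than most. A fit of only the 8886 detected probe sets gave 124 above and 110 below. The difference from all probe sets is therefore partly one of brightness, and no excess is read from it. The other 24 lists had 0 calls by limma in either direction. Among them were DNA replication, mitosis, ribosome biogenesis, cytosolic ribosomal proteins, proteasome subunits, oxidative phosphorylation, heat shock proteins, collagens, desmosomes, MHC class I presentation, complement, and the EGFR, Wnt and Notch families. The lists do not hold every gene of their kind: outside them, and named after their values were seen, the ribosomal protein genes RPS29 and RPS7 were above both lines by 0.52 and 0.21, the ribosome assembly gene NOB1 by 0.39 and the HSP70 relative HSPA13 by 0.69. Of these, RPS29 kept the call in each fit without 1 array, while RPS7, NOB1 and HSPA13 lost it in 11, 5 and 5 of 12, at adjusted p-values of up to 0.213, 0.155 and 0.131, without PIK3CA-mutant replicate 4, co-culture replicate 3 and PIK3CA-mutant replicate 2. For proteasome subunits 29 members were measured, with a median of -0.17 against the higher line, and for oxidative phosphorylation 35, with a median of -0.06, beside -0.20 over all probe sets. Outside every list were 85 of the 121 genes above and 81 of the 98 below, so most of the set is not described by them.

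**Figure D5:**
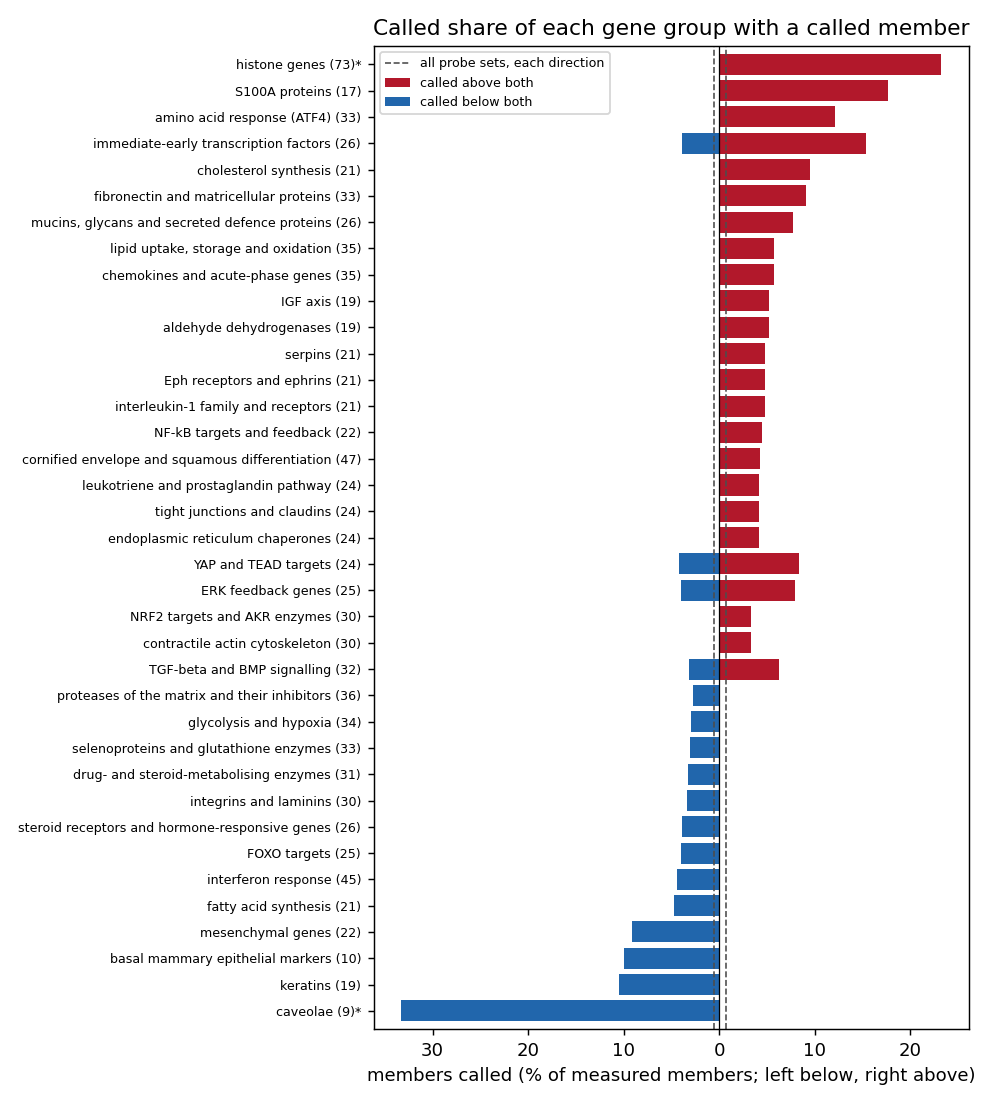
Members called above (red, to the right) or below (blue, to the left) both single cultures, as a percentage of measured members (x axis), for the 35 lists with a called member and the 2 gene groups formed after their values were seen (asterisk), with the number measured in brackets. Dashed lines give the share over all probe sets, 0.683% above and 0.553% below; histone genes reach 23.3% above and caveolae 33.3% below, and many bars rest on a single gene.

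The limit of the calls lay at modest sizes. Just inside the threshold above both lines was SLC71A1 (size 0.33, limma adjusted p 0.04996) and just outside it PGAP1 (0.68, 0.0527); below, the corresponding genes were PLGRKT (-0.91, 0.0495) and FAT4 (-0.88, 0.0504). Against a tested margin of 0.5 beyond both line means, 6 genes above passed in limma, SERPINA1, CHRNA9, S100A7, FN1, IL1B and EFNA1, and 8 below, SULT1E1, ROR1, MIOS, CAVIN2, EPB41L4A, ATP2B4, RGS2 and CAV1. Without co-culture replicate 3, 60 genes below remained past the threshold in place of 98, of which 59 were shared. In each of the 12 fits without 1 array, 64 of the 121 genes above and 50 of the 98 below kept the call. Without the trend of the spread with signal, 69 and 46 did; of the genes named here that kept it in each fit without 1 array, ID3, NR4A1, LTA4H, PTMS, MYH10, H2BC12, H2AC11, KRT6C and NDRG1 lost it in that setting. With a robust spread, DUSP5 and TRIB1 lost it as well as S100A9, ID3, NR4A1, EGR3 and FOS.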

How the data were processed

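RNA from 4 cultures each of the HER2 L755S line, the PIK3CA E545K line and their co-culture was labelled for whole-transcript arrays, per the labels' protocols. The authors deposited log2 signals per probe set, and the submitters' processing notes name Transcriptome Analysis Console; its version and settings, and so the background correction and normalization, are not given in the sources used here. The values were used as deposited.

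Probe sets with exactly 1 gene symbol in GEO's platform annotation (17709 of 24351) were fitted in limma 3.58.1 (R 4.3.3) over all 12 arrays, with a trend of the spread with signal. A gene was called above or below both single cultures when the larger of both one-sided p-values, doubled over the 2 directions and adjusted by Benjamini-Hochberg over all probe sets, was under 0.05. Standard errors are those of the nearer contrast. Signal was set against the 95th percentile of 612 negative control probe sets per array.

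Named genes are the 15 farthest on each side without array overlap, called members of the gene lists, up to 3 bright members not called per list, EGFR and genes near the threshold; others are marked as chosen after their values were seen. The members and lists were chosen with earlier results of these data known. Replicate numbers were not used to pair the samples in the main fit. Alternatives were a filter on low signal, quantile normalization, median centring, no trend, a robust spread, array weights, the replicate block, a tested margin of 0.5, the brightest probe set per gene, each array left out, and, added after seeing the data, only detected probe sets.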

Additional observations from a re-analysis of the deposited data

Results flagged for a closer look

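In 12 of 351 groups of 4 arrays, over 117 genes, 1 array stood far from the other 3 of its group; chance alone flags about 1 group in 20. In the HER2-mutant culture, replicate 1 was apart for S100A7A (4.18 beside 5.29 to 5.44), H2AC19 (11.1 beside 11.46 to 11.48), CPT1A (7.9985 beside 8.64 to 8.74), RHOV (7.37 beside 8.56 to 8.77) and TMEM97 (9.49 beside 10.18 to 10.29), each time as the lowest. Replicate 2 of that culture was the lowest for ITGB1 (15.755 beside 15.92 to 15.95). In the PIK3CA-mutant culture, replicate 1 was the highest for CCNG2 (11.6 beside 11.47 to 11.49), replicate 2 the highest for HMGN5 (6.42 beside 5.72 to 5.75), and replicate 3 the lowest for SULT1E1 (8.59 beside 9.42 to 9.46) and BDKRB1 (6.56 beside 6.85 to 6.88). In the co-culture, replicate 4 was the lowest for H3C2 (8.005 beside 8.36 to 8.40) and replicate 1 the highest for DUSP16 (9.12 beside 8.85 to 8.89). HER2-mutant replicate 1 accounted for 5 of the 12.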

How the results depend on the processing

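Without the trend of the spread with signal, 69 genes were above both single cultures and 46 below, in place of 121 and 98, all of them among those called with it. Against a tested margin of 0.5, 6 were above and 8 below, also of those at least 0.5 beyond the nearer line, which follows from the stricter hypothesis. The other settings gave between 109 (quantile normalization and median centring) and 143 (array weights) genes above and between 98 and 114 below, and no called gene that was tracked changed direction. Leaving out 1 array at a time gave 81 to 125 genes above and 60 to 94 below, the 60 without co-culture replicate 3. Of those at least 0.5 beyond the nearer line it gave 70 to 98 and 48 to 70. The count whose co-culture arrays lay below all others ranged from 302 to 428, the highest without co-culture replicate 4, and that above all others from 297 to 391; fewer arrays make separation easier. For histone genes above it gave 11 to 18.

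With the replicate number as a block, 121 genes were above both lines, 108 of them shared, and 103 below, 93 of them shared. Deviations of the 12 pairs with the same number correlated between -0.04 and 0.10, with a median of 0.035. For the 36 pairs with different numbers the range was -0.15 to 0.17, with a median of -0.01. These weak correlations cannot show whether cultures of the same number were set up together.

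Restricted to detected probe sets, a setting chosen after seeing the data, 124 genes were above and 110 below. Signal under background limits 13 of the 121 genes above and 3 of the 98 below to a difference without a fold.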
